A study of Mus musculus with 24 samples.

Results

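Gene-desert peaks are stretches of accessible chromatin that touch no annotated gene and lie more than 50 kb from the nearest annotated gene end. They were chosen by position alone, with the RefSeq gene coordinates of GRCm38.p6, and 1423 of the 75802 deposited ATAC-seq peaks (1.88%) met the rule. The peaks came from cultured CD8 T cells of C57BL/6J mice, purified from spleens and lymph nodes and activated on plates for 3 days in medium with anti-CD28 and IL-2. From day 2 to day 3 the medium held 20 mM sodium chloride (NaCl, which adds sodium without lactate or pyruvate), 20 mM sodium pyruvate, 20 mM sodium lactate, or sodium lactate together with Oxyrase, an enzyme preparation that removes oxygen and whose dose the labels do not give. Each of these 4 groups had 3 ATAC-seq and 3 RNA-seq libraries. No label says that replicates came from separate animals or cultures, so p-values measure only the spread between these samples.

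ATAC-seq uses the Tn5 transposase to cut DNA where chromatin is open, and the number of reads in a peak measures how often that site was cut. Open sites far from genes are often enhancers, switches that bind transcription factors and act on a promoter by looping across the DNA between them. Developmental and immune regulators such as Myc, Gata3 and Bcl11b are textbook cases of genes whose T cell enhancers lie far out in gene-poor DNA.

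The promoters of Klf4 and Cxcr4 are shown because desert peaks on the side of each rose with Oxyrase while the peak over the promoter did not pass the test. They were picked after those values were seen. Each line is the RefSeq sequence (GRCm38.p6) of the 250 bases before the gene start on the minus strand, chr4:55532476-55532725 for Klf4 and chr1:128592300-128592549 for Cxcr4. Capitals mark ACGTG, a form of the core letters of the hypoxia response element, searched on both strands (CACGT on the other). The form GCGTG was not searched.
Klf4: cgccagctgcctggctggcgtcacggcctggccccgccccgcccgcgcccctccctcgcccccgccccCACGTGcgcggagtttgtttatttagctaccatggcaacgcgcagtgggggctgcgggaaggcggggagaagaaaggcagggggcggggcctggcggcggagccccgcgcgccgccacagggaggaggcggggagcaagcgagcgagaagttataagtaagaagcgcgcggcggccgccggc
Cxcr4: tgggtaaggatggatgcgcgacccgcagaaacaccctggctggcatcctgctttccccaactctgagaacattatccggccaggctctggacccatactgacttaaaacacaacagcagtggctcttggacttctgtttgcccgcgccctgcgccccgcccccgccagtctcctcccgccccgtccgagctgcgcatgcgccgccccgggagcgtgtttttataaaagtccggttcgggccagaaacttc
The Klf4 window holds the letters ACGTG at 1 place, where the matches on both strands overlap, and the Cxcr4 window holds them at 0 places. Since GCGTG was left out, the 0 does not mean that the Cxcr4 window lacks the core. Of 32851 mouse promoter windows of the same length, 16.6% hold the letters, so a match is a description and not a site.

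Desert peaks were narrow and weakly accessible, as were the other peaks away from gene ends. Their median width was 356 bp (range 123 to 1766 bp), against 381 bp for intergenic peaks 1 to 50 kb from a gene end, 378 bp for peaks inside genes away from their ends and 784 bp for peaks within 1 kb of a gene end. Counts scaled to library size, as counts per 1000000 (CPM), gave a median of 3.41 CPM per desert peak, 4.17 CPM in the nearer intergenic class, 4.43 CPM inside genes, 17.2 CPM at gene ends and 5.39 CPM over all peaks. Per kb of peak the medians were 9.8, 11.1, 11.8, 22.2 and 12.9 CPM in the same order. All 1423 members passed the filter on low counts, and 0 of them had a library with 0 counts. The median within-group SD of log2 CPM was 0.19 for desert peaks and 0.133 at gene ends. At matched accessibility (log2 CPM of 1.5 to 2.5) the SDs were 0.186 and 0.184, so the extra scatter went with their low counts. The median distance to the nearest gene was 72.8 kb; 375 members lay beyond 100 kb and 41 beyond 200 kb. That nearest gene was a long noncoding RNA for 514 members, a protein-coding gene for 413 and a pseudogene for 357. The most remote peak (chr14:82812650-82813082) lay 593 kb from any gene and had 0.922 to 1.19 CPM in the 4 group means, with no call in the 5 comparisons.

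ATAC totals ran from 25.31 M to 37.07 M counts in peaks per library and RNA totals from 26.04 M to 39.64 M. The RNA of CD8 T cell markers was present (8 of 8 genes, summed level 2087 to 3005 CPM, lowest with Oxyrase), while Cd4 and all B cell, erythroid, neuronal and fibroblast markers were under 1 CPM. Summed myeloid markers stood at 1.38 to 1.68 CPM with NaCl, 2.73 to 3.72 CPM with pyruvate, 1.61 to 1.87 CPM with lactate and 4.1 to 6 CPM with Oxyrase. Summed natural killer markers stood at 28.1 to 32.2, 35.2 to 39.7, 21.9 to 26.4 and 17.7 to 19.7 CPM in the same order. In all libraries 4 of the 5 myeloid and 2 of the 3 natural killer markers were under 1 CPM, so a single gene supplied most of the natural killer sum. The natural killer list includes Eomes, which is also in the list of T cell transcription factors used below. The part of the myeloid or natural killer markers in the results below was not tested. In a bulk sample, fewer cells with an open site and a site less often open in each cell cannot be told apart. The library labelled NaCl replicate 3 stood apart from the other NaCl libraries at desert peaks: on the second principal component of the members (12% of the variance) it scored -2.93, beside lactate replicate 1 at -3.48, whereas NaCl replicates 1 and 2 scored 3.92 and 4.00. The first component (41.6%) separated the Oxyrase libraries (11.32 to 15.98) from all others (at most -2.53).

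Lactate and lactate with Oxyrase libraries placed a larger share of their counts in gene deserts, and likewise in the other classes away from gene ends. With NaCl the share was 0.975%, 0.976% and 1.03%, and with pyruvate 0.974%, 0.968% and 0.995%. Lactate libraries had 1.04%, 1.06% and 1.07%, and Oxyrase libraries 1.10%, 1.16% and 1.11%. The Oxyrase values lay above those of every other library, and the lactate values above all NaCl and pyruvate values. The group means were 0.994% ± 0.032, 0.979% ± 0.0142, 1.06% ± 0.0149 and 1.12% ± 0.0294 (SD, n = 3 each). Wilson 95% intervals, which cover counting error only, ran from 0.964 to 0.971% in pyruvate replicate 2 and from 1.15 to 1.16% in Oxyrase replicate 2. The share of counts at gene ends moved the other way, from 53.5% ± 1.96 with NaCl to 48.1% ± 0.764 with Oxyrase (SD, n = 3 each), and NaCl replicate 3, at 51.3%, lay within the lactate range. The nearer intergenic peaks held 14.6% ± 0.525 with NaCl and 16.2% ± 0.148 with Oxyrase, and peaks inside genes 30.9% ± 1.4 and 34.5% ± 0.656 (SD, n = 3 each), so the higher share was not limited to deserts. Since a share is relative to the other peaks of its library, these values do not say which class of peaks moved. The group order was the same without the 1% of members with most counts and the Y chromosome (0.832%, 0.82%, 0.901% and 0.977%).

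**Figure D1:**
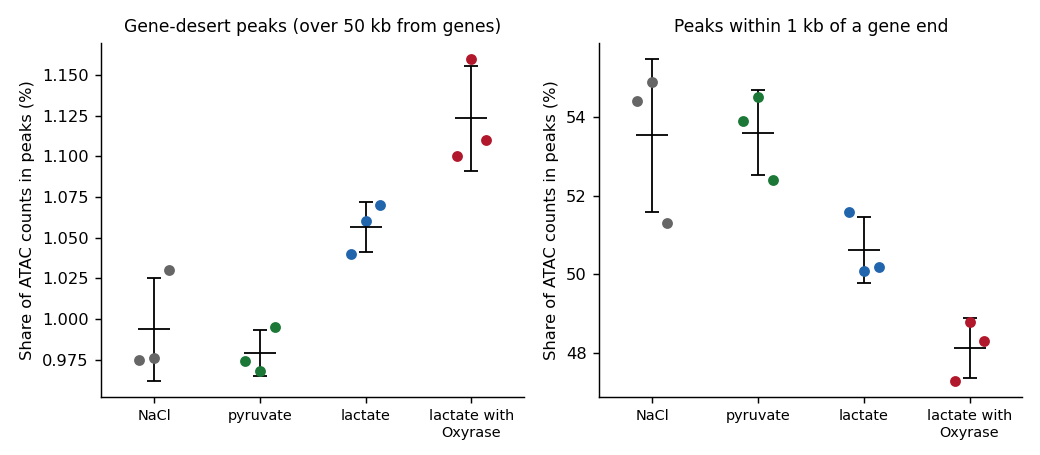
Share of ATAC counts (percent, y axis) in gene-desert peaks (left) and in peaks within 1 kb of a gene end (right) for the 4 groups (x axis). Points are libraries and bars the mean ± SD of 3; Oxyrase libraries hold the highest desert shares (1.10 to 1.16%) and the lowest gene-end shares (47.3 to 48.8%), and neither y axis starts at 0.

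Adding Oxyrase to lactate changed many sites in gene deserts, more often toward higher accessibility. Of 1423 members, 465 passed the test (32.7%, against 28.4% of all peaks): 308 were higher and 157 lower. The higher ones were 21.6% of members against 15.6% of all peaks, and the lower ones 11% against 12.8%. The split resembled that of the other peaks away from gene ends: 28.6% of intergenic peaks 1 to 50 kb from a gene end were called (18.4% higher, 10.2% lower) and 29.2% of peaks inside genes (18.8% and 10.4%). At gene ends 6.76% were higher and 19.7% lower. Differences between classes were not tested. A change of at least 2-fold was called at 88 members, 74 of them higher. Over all 75802 peaks such a change was called at 1924, of which 1571 were higher, so that lean was not limited to deserts. The median log2 fold change was 0.07 over the members, 0.03 in both of those other distal classes and -0.02 over all peaks. Under 4 other ways of scaling the libraries the higher share of called members ranged from 58.6 to 70.7%, around 66.2% with the main scaling.

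**Figure D2:**
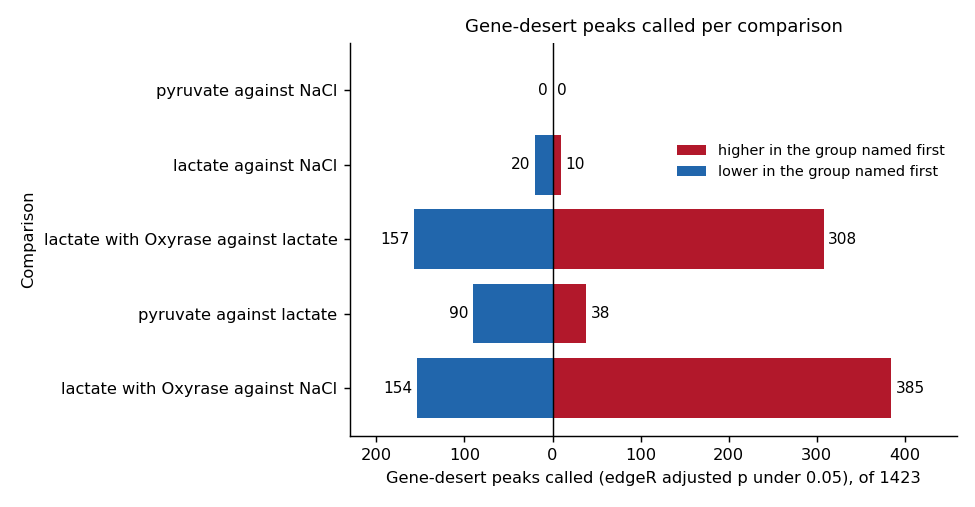
Number of gene-desert peaks called higher (red, right) or lower (blue, left) in the group named first, for the 5 comparisons (edgeR adjusted p under 0.05). Bars run from 0 for pyruvate against NaCl to 385 higher and 154 lower for lactate with Oxyrase against NaCl; comparisons share libraries and are not independent.

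One of the clearest rises lies between Pgrmc2, which encodes a haem-binding membrane protein, and Jade1, a subunit of a histone acetyltransferase complex (chr3:41284694-41285318, 202 and 270 kb from them). It measured 4.05, 5.18 and 4.36 CPM with NaCl, 6.02, 5.37 and 5.56 CPM with pyruvate, 4.43, 3.75 and 4.39 CPM with lactate, and 12.2, 14.3 and 11.5 CPM with Oxyrase. All 3 Oxyrase libraries stood above the other 9 (log2 fold change against lactate 1.59 ± 0.13 SE, adjusted p = 4.45e-12). The naming rule requires this with regard to the lactate and NaCl libraries. The RNA of both flanking genes was slightly lower with Oxyrase (-0.22 ± 0.05 for Pgrmc2 and -0.16 ± 0.05 for Jade1, log2 ± SE).

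A compact group of sites about 200 kb from Klf4, a transcription factor that restrains T cell division, opened together. The peak at chr4:55732077-55732286 had 3.29, 3.33 and 3.74 CPM with lactate and 8.93, 10.5 and 7.62 CPM with Oxyrase (1.38 ± 0.15, adjusted p = 1.54e-09). Its neighbour at chr4:55734304-55734650 had 4, 2.57 and 3.55 CPM against 8.39, 8.79 and 8.05 CPM (1.31 ± 0.16, adjusted p = 2.18e-08). Neither set of libraries overlapped the other at these sites, which the naming rule requires. Of the 8 desert peaks that flank Klf4, 5 were higher and 0 lower, with a median log2 fold change of 0.80. Klf4 RNA rose as well, from 8.3, 7.39 and 7.71 CPM to 14.7, 11.3 and 10.6 CPM (0.64 ± 0.11, adjusted p = 8.82e-05), while the peak over its promoter (74.9 CPM on average) differed by 0.03 ± 0.10.

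Around Myc, which drives growth and division, more desert peaks closed than opened. Of the 31 members that flank it on either side, 12 were lower and 2 higher, and the median was -0.16. One of the 2 exceptions was a 943 bp peak between Myc and Gsdmc (chr15:62568899-62569842, 579 kb from Myc). It measured 6.61, 8.66 and 8 CPM with lactate and 20.1, 19.2 and 16.6 CPM with Oxyrase (1.27 ± 0.13, adjusted p = 3.70e-10). Myc RNA fell from 553, 565 and 522 CPM to 353, 333 and 329 CPM (-0.69 ± 0.04, adjusted p = 8.01e-10).

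Other large rises involved fewer reads. Between Csmd3 and Trps1, a GATA-type repressor, the peak at chr15:50479973-50480265 went from 1.86 ± 0.291 to 6.51 ± 0.615 CPM (SD, n = 3; log2 fold change 1.79, adjusted p = 1.35e-10), and Trps1 RNA rose by 0.75 ± 0.06. Peaks on the sides of Tox (chr4:7972682-7973605, 981 kb from it, 4.07 ± 0.577 to 9.37 ± 0.178 CPM, adjusted p = 3.69e-08), Nr4a3 (chr4:47781057-47781469, 1.40 ± 0.19) and Ets1 (chr9:32980824-32981147, 0.91 ± 0.17) also rose. RNA of these 3 transcription factors went the other way: Tox fell by 0.46, Nr4a3 by 0.31 and Ets1 by 0.55 on the log2 scale. The peak on the Tox side lies in a gene-free stretch of 320 kb that ends at the coding gene Car8. Car8 is therefore nearer to it than Tox.

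The rule for naming peaks took 4 falls. Between Sp4 and Sp8, zinc-finger transcription factors of the Sp family, the peak at chr12:118423902-118424594 measured 14, 12.8 and 15.1 CPM with lactate and 5.89, 6.55 and 7.55 CPM with Oxyrase (-1.08 ± 0.11, adjusted p = 1.01e-09). A peak 78.8 kb from Gadl1 (chr9:115805214-115805891) fell from 6.4 ± 0.736 to 2.89 ± 0.325 CPM (SD, n = 3; -1.15 ± 0.17). Near Prlr (chr15:10074997-10075922) the values were 13.9 ± 0.861 and 8.27 ± 0.499 CPM (-0.75 ± 0.11), and near Camk1g (chr1:193421440-193422094) 6.23 ± 1.4 and 3.69 ± 0.303 CPM (-0.76 ± 0.17). In each of these 4 peaks the 3 Oxyrase libraries lay below the 3 lactate libraries, which the naming rule requires.

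**Figure D3:**
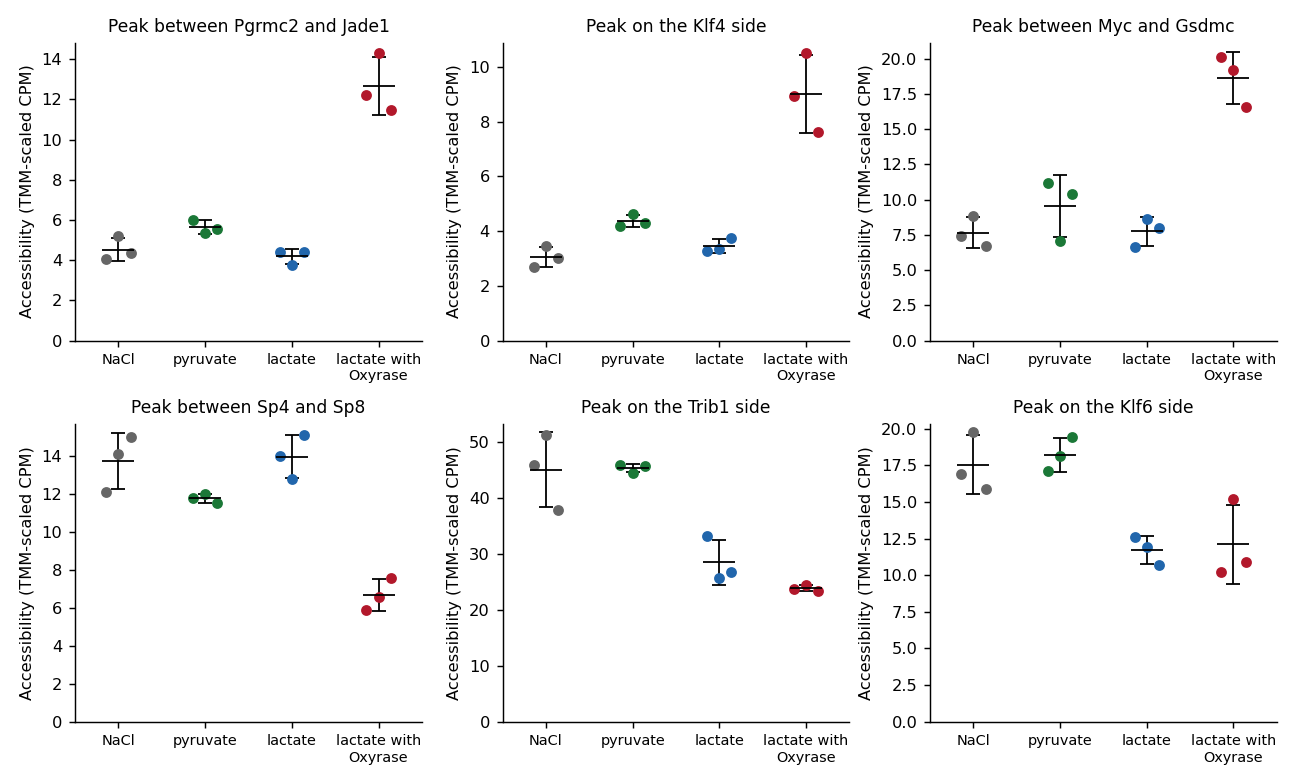
Accessibility in TMM-scaled CPM (y axis, from 0) of 6 gene-desert peaks in the 4 groups (x axis). Points are libraries, bars the mean ± SD of 3; the upper 3 peaks are high in the Oxyrase libraries alone, the Sp4 to Sp8 peak is low in them (5.89 to 7.55 CPM), and the Trib1 and Klf6 side peaks are lower in lactate than in NaCl.

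Many desert peaks shared a stretch of gene-free DNA, which the distance rule favours because it admits peaks in wide gaps only. They fell into 560 stretches between neighbouring genes, of which 288 held 1 member and 78 held 5 or more; those 78 contained 617 members (43.4%). In the Oxyrase against lactate comparison, called members that were next to each other in a stretch had the same direction in 143 of 185 pairs (77.3%). Such neighbours share a stretch of chromatin and are not replicates. With 308 of 465 called members higher, many pairs would share a direction anyway, and no such count was made for other peaks. Of the 78 larger stretches, 32 had only higher calls, 20 only lower, 22 both and 4 none.

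The most crowded stretch lies on chromosome 5 between Smim20 and the predicted gene Gm40304, on the side of Rbpj, the DNA-binding partner of Notch. It holds 29 members within 268 kb of gene-free DNA, among them one of the most accessible desert peaks (chr5:53490523-53491380, 64.4 kb from Rbpj, 95.3 ± 9.81 CPM with lactate). With Oxyrase 14 of the 29 were higher and 0 lower (median 0.37, range -0.01 to 1.13). Their summed accessibility was 515, 464 and 474 CPM with lactate and 607, 601 and 553 CPM with Oxyrase, with no overlap. NaCl and pyruvate sums of 475 to 513 CPM lay in the lactate range. The largest rise was at a small peak (chr5:53483026-53483295, 1.76 ± 0.433 to 3.82 ± 0.608 CPM, 1.13 ± 0.22), whereas the big peak above rose by 0.23 ± 0.09 and missed the threshold (adjusted p = 0.0606). Rbpj RNA rose by 0.25 ± 0.04 with Oxyrase and by 0.22 ± 0.04 with lactate against NaCl.

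Upstream of Myc, a stretch of 15 members between Gm24696 and D030024E09Rik had 6 lower and 0 higher calls with Oxyrase. Of those 6, 5 sit in its first 29.1 kb, with changes from -0.58 to -1.48, and another member within that span was at -0.18 and not called. The lowest was a 133 bp peak (chr15:61440991-61441124) that measured 2.83, 2.41 and 2.9 CPM with lactate and 0.842, 0.935 and 1.16 CPM with Oxyrase (adjusted p = 3.85e-06). Sums over the stretch were 147, 144 and 138 CPM with lactate and 136, 124 and 120 CPM with Oxyrase.

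Next to Cxcr4, the receptor for the homing chemokine CXCL12, a stretch of 15 members had 6 higher and 0 lower calls (median 0.46). It ties in size with the smallest stretches that the naming rule takes and was added after its values were seen. The 6 risers are spread over 158 kb, and the one nearest the gene (chr1:128672256-128672672, 80 kb from it) went from 5.96 ± 0.395 to 10.7 ± 1.69 CPM (0.84 ± 0.13, adjusted p = 1.78e-06). Cxcr4 RNA rose from 4.24, 3.08 and 2.89 CPM to 4.59, 6.98 and 6.49 CPM (0.84 ± 0.17, adjusted p = 0.000399), and its promoter peak differed by 0.08 ± 0.09.

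Beside Gadd45g, a stress-induced signalling protein, 4 of 18 members were higher and 0 lower, up to 1.07 ± 0.20 at chr13:51962842-51963020. Gadd45g RNA rose from 18.9, 18.1 and 17.2 CPM to 36.2, 32.6 and 38.1 CPM (0.98 ± 0.07). The most accessible member there, a 1184 bp peak at chr13:51935758-51936942, ran the other way across the groups: 77.5 ± 8.83 CPM with NaCl, 77.2 ± 4.15 with pyruvate, 60.8 ± 8.58 with lactate and 51.2 ± 5.07 with Oxyrase (Oxyrase against NaCl -0.59 ± 0.10, adjusted p = 4.07e-06). Beside Rasa1, a brake on Ras, 4 of 15 were higher and 0 lower. Over all members 21.6% were higher and 11% lower with Oxyrase, so the higher calls beside Gadd45g were near that share. No stretch's count was tested. Stretches toward Gata3 (19 members) and Cblb, an inhibitor of T cell receptor signalling (17 members), each had 4 higher and 2 lower, with medians of -0.10 and -0.12. Near Gata3 the peak at chr2:9764348-9764674 had 2.83, 2.14 and 3.29 CPM with lactate and 6.03, 5.42 and 5.16 CPM with Oxyrase (1.00 ± 0.18).

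**Figure D4:**
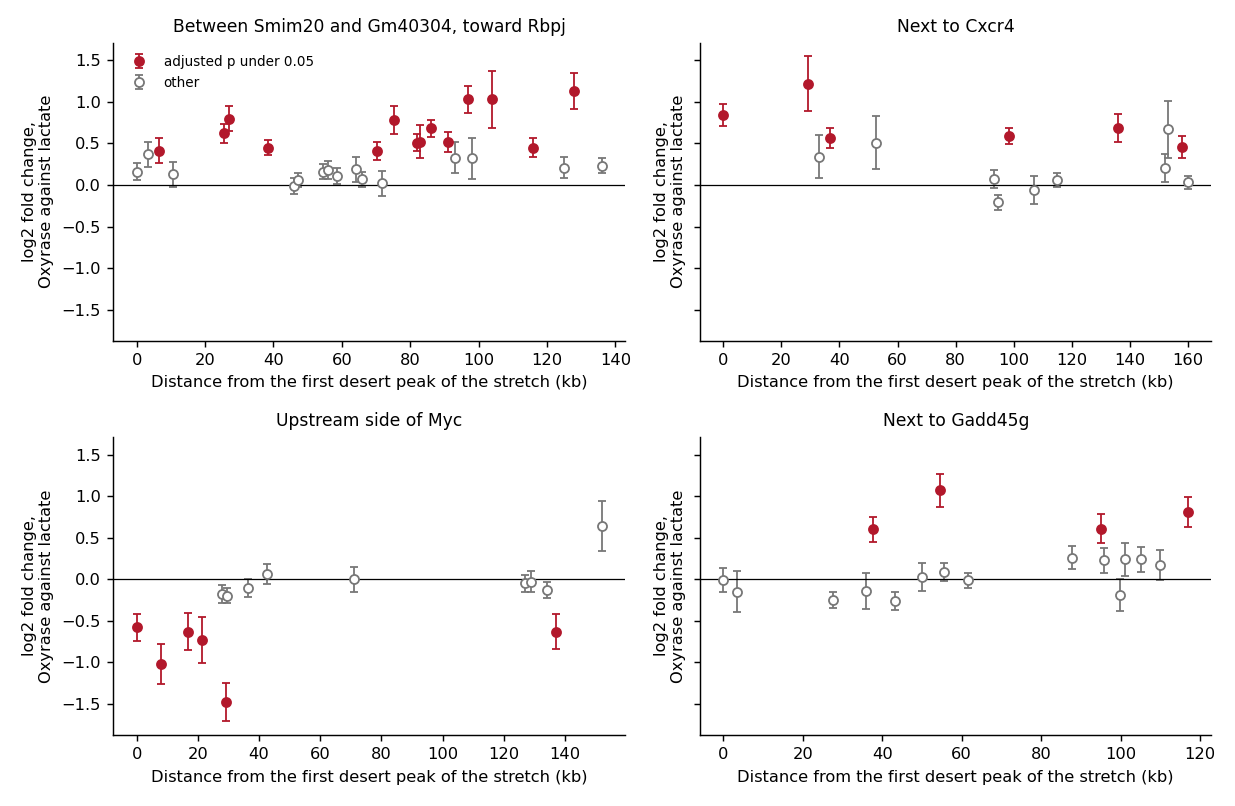
Log2 fold change ± SE of accessibility, lactate with Oxyrase against lactate (y axis), of each gene-desert peak by its distance in kb from the first desert peak of the stretch (x axis). Filled red points have an adjusted p under 0.05; called peaks are all above 0 in the stretches toward Rbpj (14 of 29), next to Cxcr4 (6 of 15) and next to Gadd45g (4 of 18), and all below 0 upstream of Myc (6 of 15).

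Members were then grouped by the role of their flanking coding genes, counting the nearest coding gene on each side. For reading these counts, 21.6% of all members were higher with Oxyrase and 11% lower, and no list's count was tested. Of 57 T cell transcription factors, 22 flanked 175 members, of which 29 were higher and 30 lower with Oxyrase. The median was -0.02, against 0.07 over all members and -0.02 over all peaks. Myc alone flanked 31 of these members, with 2 of the higher and 12 of the lower calls. Counts for the other single genes were small. Bcl11b, which keeps T cell identity, had 1 higher and 4 lower of 14, Satb1, a chromatin organiser, 2 and 3 of 16, Tox, an exhaustion factor, 4 and 1 of 18, and Zeb2, which drives effector differentiation, 2 and 0 of 4. Cytokine and chemokine genes (Ifng, Cxcr4 and Tgfbr2) flanked 20 members, with 7 higher and 2 lower (median 0.27), of which Cxcr4 alone supplied 15 members and 6 of the 7 rises described above. Lymphocyte surface receptors flanked 30 (2 higher, 6 lower, median -0.10), and Icos, a costimulatory receptor, contributed 2 of the lower ones among 8. Signalling genes flanked 77 (16 higher, 8 lower, median 0.03). Neural adhesion and guidance genes, typical neighbours of large deserts, flanked 86 members in these T cells (22 higher, 3 lower, median 0.09). Metabolic and hypoxia genes flanked 3 members (0 higher, 0 lower) and the 9 cytotoxic effector genes 0.

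Peaks over the promoters of the flanking genes gave few calls with Oxyrase, and more of them were lower than higher. Of 888 flanking coding genes, 668 had a promoter sequence in the RefSeq table and 444 of these had a peak over it. With Oxyrase 18 of those promoter peaks were higher and 41 lower (13.3% called, against 28.4% of all peaks and 26.5% of those within 1 kb of a gene end, where lower calls also outnumbered higher ones). For 265 called desert peaks the nearest coding gene had a promoter peak, which was called in the same direction for 15, in the opposite direction for 17 and not called for 233. These promoter peaks had more reads, with a median level of 45.7 CPM against 4.27 CPM for the desert peaks. Median absolute log2 fold changes were 0.09 at the promoters and 0.69 at the desert peaks, and the latter were picked for passing the test. A p-value that misses the threshold does not show that a promoter was unchanged.

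RNA of many flanking genes changed with Oxyrase. Of 858 flanking genes found in the RNA table, 486 (56.6%) had enough counts to be tested, close to the 56.9% of all coding genes. With Oxyrase 311 were called (64%, against 49.7% of all genes tested). Of the 486, 185 were higher (against 26.1% of all genes tested) and 126 lower (against 23.6%). Here and below, the shares set against flanking genes are of all 14749 genes tested, of which 11900 were counted as coding. Shares for coding genes alone were not computed. Among 252 called desert peaks whose nearest coding gene was also called in RNA, 162 (64.3%) had the direction of the gene: 125 were higher with a higher gene and 37 lower with a lower one. In 52 a higher peak stood beside a lower gene and in 38 a lower peak beside a higher gene. Higher calls outnumbered lower ones among these peaks and among their genes, so part of the match follows from those totals. The peaks share 127 genes, so no test was made on the match.

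Genes of the role lists with all 3 readouts are given gene by gene. There were 21 such genes, taking for each the called desert peak of smallest p. Each gene flanks its peak and need not be the nearer of the coding genes on its sides. Promoter peaks were called for 4 of them, and RNA for 17, in the direction of the desert peak for 7 and against it for 10. Ifng, the effector cytokine, had a desert peak 182 kb away that rose from 3.86 ± 0.499 to 6.21 ± 0.518 CPM (chr10:118628088-118628388, 0.68 ± 0.17), RNA up by 1.77 ± 0.07 and a promoter peak at -0.07 ± 0.09. Zeb2, 1065 kb from its peak, had 1.01 ± 0.21, 1.47 ± 0.07 and 0.07 ± 0.09 in the same order. Satb1, 635 kb from its peak, was lower in all 3 (peak, RNA and promoter -0.66 ± 0.12, -0.51 ± 0.04 and -0.26 ± 0.09). Jun, a subunit of AP-1, had a lower desert peak (-0.30 ± 0.09) with higher RNA (0.45 ± 0.05). Id2 also had a lower desert peak (-0.49 ± 0.15, not called without lactate replicate 2 or Oxyrase replicate 3) and higher RNA (1.18 ± 0.08). Cblb showed the reverse, with a peak 1191 kb away up by 0.94 ± 0.11 and RNA at -0.37 ± 0.05. Ccdc54, on the other side of that peak, lies nearer to it than Cblb.

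**Figure D5:**
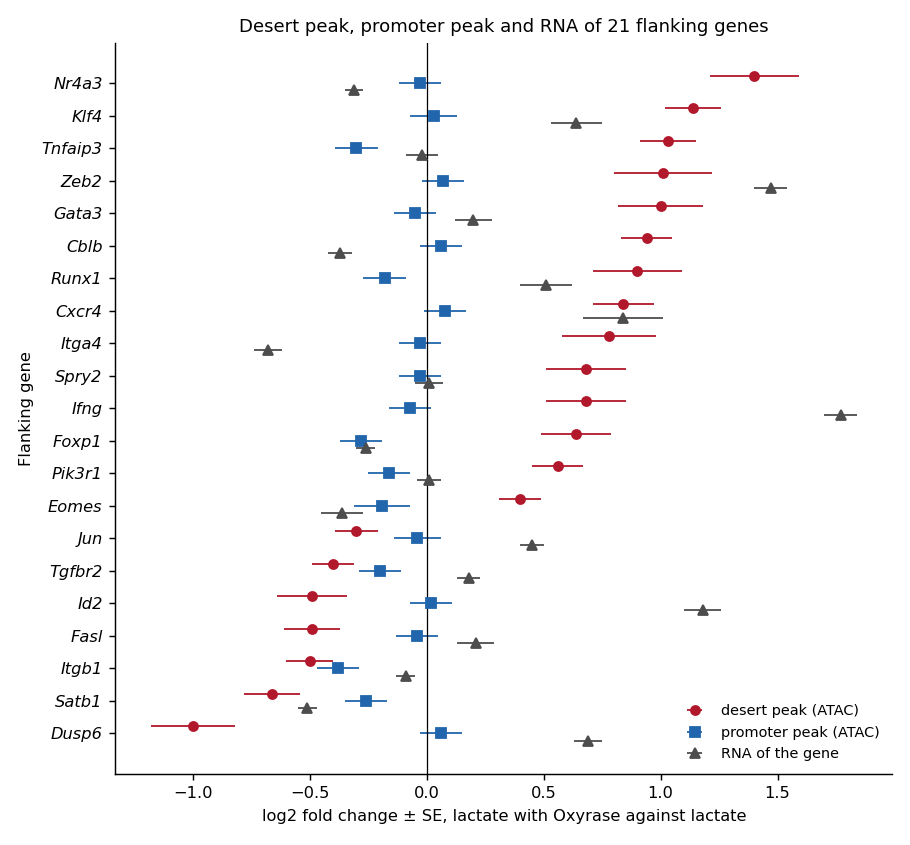
Log2 fold change ± SE, lactate with Oxyrase against lactate (x axis), of the called desert peak of smallest p, the promoter peak and the RNA for 21 flanking genes (y axis). Desert peaks, chosen for being called, reach 1.40 (Nr4a3), while promoter peaks stay between -0.38 and 0.08, and RNA points fall on either side of 0.

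Lactate against NaCl changed few desert peaks. In this comparison 30 members passed the test (2.11%, against 6.41% of all peaks): 10 were higher (0.703%, against 1.13% of all peaks) and 20 lower (1.41%, against 5.28%), with a median log2 fold change of 0.05 against 0.03 over all peaks. The other classes away from gene ends also had few calls, at 3.48% of intergenic peaks 1 to 50 kb out and 3.64% of peaks inside genes. At gene ends 14.6% were called. The direction of this small set depended on scaling: total-count scaling, which shifts the median of all peaks to 0.10, gave 46 higher and 11 lower, and scaling on intergenic peaks gave 3 and 27. It also depended on single libraries, with 109 calls (55 higher, 54 lower) without NaCl replicate 3, 8 without NaCl replicate 1, 3 without NaCl replicate 2, 15 without lactate replicate 2 and 3 without lactate replicate 3.

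A well-covered site 80.2 kb from Trib1, a regulator of protein degradation and MAPK signalling, had the smallest adjusted p among the named falls. The peak at chr15:59737290-59738037 measured 45.9, 51.3 and 37.9 CPM with NaCl, 45.9, 44.5 and 45.6 CPM with pyruvate, 33.1, 25.7 and 26.7 CPM with lactate and 23.7, 24.4 and 23.4 CPM with Oxyrase. All 6 libraries with lactate lay below the other 6 (lactate against NaCl -0.66 ± 0.10, adjusted p = 0.000156, and at most 0.0101 under 16 alternatives). For the lactate libraries without Oxyrase the naming rule requires this. Trib1 RNA was at -0.07 ± 0.06 in that comparison and fell by 0.65 with Oxyrase.

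A peak 289 kb from Klf6, a zinc-finger transcription factor, was also lower with lactate than with NaCl (chr13:6159495-6160015). It had 16.9, 19.8 and 15.9 CPM with NaCl and 12.6, 11.9 and 10.7 CPM with lactate (-0.57 ± 0.12, adjusted p = 0.00131, and at most 0.0453 under 16 alternatives). With pyruvate it stood at 18.2 ± 1.16 CPM, 0.63 ± 0.12 above lactate. Against NaCl no member of its stretch was lower than -0.53 with Oxyrase, so this peak was not lowest with Oxyrase as the Trib1 side peak was. Klf6 RNA was 0.12 ± 0.05 higher with lactate than with NaCl and missed the threshold (adjusted p = 0.112).

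On the Fasl side (chr1:161657569-161657855), near the gene of the death ligand, values were 7.57, 8.06 and 6.63 CPM with NaCl, 9.08, 8.86 and 8.57 CPM with pyruvate and 5.63, 4.56 and 4.32 CPM with lactate. Lactate was lower than NaCl by -0.61 ± 0.15 (adjusted p = 0.00742) and pyruvate higher than lactate by 0.87 ± 0.15 (adjusted p = 0.000174). Fasl RNA was highest with pyruvate (21.9, 26.4 and 26.7 CPM, against 19.8, 20.2 and 19.6 CPM with lactate). The lactate against NaCl call was lost without NaCl replicate 1, NaCl replicate 2 or lactate replicate 3. Another fall, near Dnajc5b (chr3:19456332-19456588, 7.17 ± 1.82 to 4.7 ± 0.282 CPM) was lost without the same libraries.

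Rises with lactate were 0.44 to 0.48 for the 4 highest that the rule names, which need enough reads and groups that do not overlap. Over all 30 called members the changes reached 0.78 upward and -0.84 downward. Near Gm40892 (chr12:92740899-92741580) the values were 7.37, 8.02 and 8.15 CPM with NaCl and 10.5, 10.6 and 10.8 CPM with lactate (0.44 ± 0.12, adjusted p = 0.014). The peaks between Aldh8a1 and Sgk1 (0.47 ± 0.14) and near Emp1 (0.44 ± 0.14) had adjusted p of 0.0403 and 0.046. Each of these 3 lost its call when 1 of several single libraries was left out.

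Pyruvate against lactate gave 128 called members (9% of members, against 11.6% of all peaks): 38 were higher (2.67%, against 6.84%) and 90 lower (6.32%, against 4.78%), with a median of -0.08 against -0.03 over all peaks. The nearer intergenic peaks (8.64% called) and peaks inside genes (8.99%) were similar, and there too lower calls outnumbered higher ones. Leaving out 1 library gave 69, 67 and 75 calls without pyruvate replicates 1, 2 and 3, and 67 and 46 without lactate replicates 2 and 3. The split was 53 higher and 55 lower with scaling on intergenic peaks and 27 and 146 with total counts. The 4 highest were the Trib1, Klf6 and Fasl side peaks and a peak near Mtss1, which organises the actin cytoskeleton (chr15:59158859-59159336, 10.2 ± 1.31 CPM with pyruvate, 5.99 ± 1.29 with lactate and 10.4 ± 2.65 with Oxyrase). Lower with pyruvate were peaks near Pde4b, a cAMP phosphodiesterase (chr4:102682163-102682558, 5.95 ± 1.23 against 8.83 ± 0.317 CPM, -0.56 ± 0.14), and between Cnksr2 and Rps6ka3 (chrX:159056070-159056623, -0.70 ± 0.16). In the Gata3 stretch a peak 108 kb from the gene (chr2:9748227-9748741) had 15.7, 14.6 and 14.2 CPM with pyruvate and 19.5, 20.2 and 20.7 CPM with lactate (-0.44 ± 0.10, adjusted p = 0.00185). These groups share the lactate libraries with the preceding comparison.

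Pyruvate against NaCl gave 0 called members, and 0% of all peaks were called. DESeq2 also called 0 members. In edgeR 127 of 1423 members had an unadjusted p under 0.05, a larger share than the 4060 of all 75802 peaks. That difference was not tested, and the lowest adjusted p among members was 0.488. The median change was -0.03. RNA of the flanking genes did change in this comparison: 137 were called (28.2%, against 15.7% of all genes tested), 111 of them higher (against 9.4%) and 26 lower (against 6.28%), among them Zeb2 (0.68 ± 0.07), Ifng (0.68 ± 0.06) and Klf6 (0.32 ± 0.05). Lactate against NaCl changed RNA of 54 flanking genes (11.1%, against 7.73%), 19 of them higher (against 3.61%) and 35 lower (against 4.12%). Pyruvate against lactate changed 161 (33.1%, against 24%), 133 of them higher (against 13%) and 28 lower (against 10.9%).

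Lactate with Oxyrase against NaCl, which combines both additions, gave 539 called members (37.9%, against 40.7% of all peaks): 385 were higher (27.1%, against 21.5%) and 154 lower (10.8%, against 19.2%), with a median of 0.12 against 0.03. The other classes away from gene ends were similar: 23.9% of nearer intergenic peaks were higher and 13% lower, and 25.9% and 12.2% of peaks inside genes. The split was 474 and 107 with total-count scaling, which shifts the median of all peaks to 0.14, and 315 and 201 with scaling on intergenic peaks. The highest by the rule were the Pgrmc2 to Jade1 peak (1.48 ± 0.13), both Klf4 side peaks (1.56 ± 0.15 and 1.45 ± 0.16) and a peak between Ccdc54 and Cblb (chr16:50839595-50840101). That last peak measured 8.38, 8.61 and 11.7 CPM with NaCl, 10.4, 11.7 and 10 CPM with pyruvate, 13.4, 11.8 and 13.1 CPM with lactate and 25.4, 25.8 and 22.3 CPM with Oxyrase. It rose by 1.35 ± 0.11 against NaCl (adjusted p = 1.04e-12), and 0.94 of that lay between lactate and Oxyrase. Falls included the Sp4 to Sp8 peak (-1.05 ± 0.12) and a peak near Arhgef26 (chr3:62159160-62159485, 27 ± 6.4 CPM with NaCl and 13.5 ± 1.51 with Oxyrase, adjusted p = 3.76e-09). RNA of 319 flanking genes was called (65.6%, against 50.8% of all genes tested), 186 of them higher (against 26.5%) and 133 lower (against 24.3%).

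The 6 most accessible members differed in direction. At chr3:5860342-5860821 the values were 602, 660 and 437 CPM with NaCl, 520, 600 and 511 CPM with pyruvate, 441, 376 and 341 CPM with lactate and 296, 369 and 290 CPM with Oxyrase (Oxyrase against NaCl -0.83 ± 0.12). NaCl replicate 3 overlapped the lactate libraries there, and the lactate against NaCl call (-0.55 ± 0.12, adjusted p = 0.00243) was lost without NaCl replicate 2 or lactate replicate 3. A peak at chr12:3109871-3110113, close to the start of the assembled chromosome, had 139 ± 16.4 CPM with NaCl and 102 ± 21 CPM with Oxyrase. No repeat annotation was used here. The others were the pair on the Rbpj side, a 1559 bp peak near Sp4 (chr12:118375875-118377434, 123 ± 3.36 CPM with NaCl, 129 ± 5.79 with lactate, 104 ± 3.54 with Oxyrase) and a peak 180 kb from Atp10a (chr7:58474404-58475813, 61.6 ± 5.24 to 76.6 ± 3.19 CPM).

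Calls were made at every distance from genes. In the Oxyrase against lactate comparison the share called was 36.4% of 387 members at 50 to 60 kb, 29.9% of 432 at 60 to 80 kb, 35% of 349 at 80 to 120 kb, 29.4% of 214 at 120 to 200 kb and 24.4% of 41 beyond. The median level fell from 3.54 to 2.35 CPM over the same bands, and its part was not tested. Just inside the limit were chr14:71113147-71113825 (50 kb, 5.69 ± 0.474 CPM with NaCl, 6.98 ± 1.16 with Oxyrase) and chr3:21598159-21598313 (50.1 kb, 1.39 ± 0.0927 and 1.45 ± 0.204). Just outside were chr15:61407935-61409035 (49.9 kb, 26.9 ± 0.726 and 17 ± 0.629), which adjoins the Myc stretch, and chr6:54766689-54766932 (50 kb after rounding, 1.75 ± 0.356 and 2.2 ± 0.588).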

How the data were processed

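Mouse CD8 T cells were profiled by ATAC-seq (12 libraries) and RNA-seq (12 libraries), 3 per group. For ATAC-seq the authors deposited raw read counts in 75802 peaks of mm10, deduplicated per the file headers. For RNA-seq the authors deposited estimated counts per gene, and the submitters' processing notes name RSEM 1.2.12. The RNA table is named as adjusted, and how is not given in the sources used here. Deviations of RNA libraries with the same replicate number ran slightly against each other (correlation -0.13 to -0.08 over genes), so RNA p-values may be too small.

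Peaks were placed with RefSeq genes of GRCm38.p6. Peak coordinates are printed as deposited, and whether they count from 0 or 1 is not given. Flanking genes are the nearest protein-coding gene on each side, since most nearest genes are noncoding or pseudogenes, and a member counts for both. Estimated counts were rounded. For each assay the 12 libraries entered a single edgeR 4.0.16 quasi-likelihood fit (4 groups, TMM scaling, filterByExpr, 8 residual degrees of freedom), with Benjamini-Hochberg adjustment over all 75802 peaks or 14749 genes and a threshold of 0.05. The SE is the log2 fold change over the square root of F. CPM are TMM-scaled and not divided by length.

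The members, gene lists and rules were chosen with earlier results of these data known. The naming rule took, per comparison, the 4 highest and 4 lowest called members with mean log2 CPM of at least 2 and groups that did not overlap. It also took the 6 members of highest CPM, the extremes of the 6 stretches with most members, the called member of smallest p for each listed gene, the 2 peaks on each side of the 50 kb limit, the farthest member, and RNA of flanking genes. Alternatives covered scaling, count filters, DESeq2, the distance limit, a replicate block and each library left out.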

Additional observations from a re-analysis of the deposited data

How the results depend on the processing

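The counts of called gene-desert peaks for lactate with Oxyrase, against lactate or NaCl, stayed within 1.5 times under every scaling, count filter, tool and left-out library tried, and the 0 of pyruvate against NaCl stayed 0. Lactate against NaCl (30) gave 57 with total-count scaling, 59 with loess offsets, 51 with the replicate block, 70 with the block and loess, and 3 to 109 with 1 library left out. Pyruvate against lactate (128) gave 46 to 118 with 1 library left out. At an adjusted p under 0.01 the counts were 7 for lactate against NaCl, 309 for Oxyrase against lactate and 43 for pyruvate against lactate.

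Other definitions changed the number of peaks and with it the counts, in the order lactate against NaCl, Oxyrase against lactate, pyruvate against lactate and Oxyrase against NaCl: 89, 1264, 323 and 1453 of 3873 peaks beyond 25 kb, 9, 118, 35 and 137 of 375 beyond 100 kb, and 212, 2425, 657 and 2887 of 7554 beyond 50 kb of protein-coding genes alone.

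In RNA, flanking genes called for lactate against NaCl (54) were 86 without the filter, 34 with the replicate block and 22 to 57 with 1 library left out, and for pyruvate against NaCl (137) 86 to 126 with 1 library left out, the lowest without pyruvate replicate 2. The replicate numbers are not stated to pair the samples, and the correlation of deviations between same-numbered ATAC libraries ran from -0.15 to 0.17. In pyruvate against NaCl it was 0.04, 0.11 and 0.17, each library matching its own number best, and in the other 4 comparisons that was not so for every library; the block moved no other count by over 1.5 times (Oxyrase against lactate 500, pyruvate against lactate 162, Oxyrase against NaCl 561).

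Of 72 named desert peaks called for Oxyrase against lactate, 54 kept the call under every alternative run, as did 58 of 80 for Oxyrase against NaCl, 11 of 34 for pyruvate against lactate and 2 of 16 for lactate against NaCl. The 1559 bp peak near Sp4 (Oxyrase against NaCl -0.24) reversed to 0.07 with loess offsets and 0.08 with the block and loess; the cause was not tested. The most remote peak had SEs of 0.36 to 0.38 on the log2 scale, against 0.09 at the 1559 bp peak, so small changes at weak members were not detectable at this depth.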
